A study of Drosophila melanogaster with 6 samples.

Results

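Neuropeptides are short signalling molecules cut from larger precursor proteins, often amidated at their end, packed into dense core vesicles and read mostly by G protein-coupled receptors. In the fly head they come from small sets of neurons, among them the clock neurons that time daily activity, and from neurosecretory cells that release hormones into the blood. The genes described here are 31 listed neuropeptide precursor and receptor genes of fly heads, taken from the array where the platform annotation assigns a probe set to that gene alone. Of the 31 genes, 24 had such a probe set, 1 each, among 10844 genes so represented on the array. Tk, AstA, Hug, Ilp3, Ilp5, Dsk and SIFa had none in the annotation used and were not analysed here. The list was split into clock neuron genes (9 of 9 measured), neurosecretory genes (5 of 9) and others (10 of 13), by where each peptide is best known, although several are made in more than 1 place.

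Head RNA was hybridised to 6 Affymetrix arrays, 3 of tim-MJD flies and 3 of wild type flies. The tim-MJD flies carry a tim-GAL4 driver and a UAS-MJD78Q transgene. The promoter behind the driver is that of timeless, a clock gene active in clock neurons and also in photoreceptors and glia. MJD is the protein of Machado-Joseph disease. The label of tim-MJD 3 names the transgene without the polyglutamine length of 78. Wild type 1 and 3 are labelled as strain CS, and wild type 2 carries no strain name. Flies of both groups were aged 2 to 4 days and were sampled at Zeitgeber time 16, which is 16 hours after lights on, following 3 days in light and dark. Flies with just the driver, or just the transgene, were not analysed here, and the parts of driver, transgene and strain background cannot be told apart.

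Levels are given as log2 of the normalized value plus 16 unless stated otherwise, and a difference is tim-MJD minus wild type. The log base behind the deposited values is not settled. Read as powers of e, they would give differences about 0.693 times the size printed for bright genes, with the same direction. Median intensity lay between 26.1 and 31.5 per array, and 40.2% to 44.4% of probe sets exceeded all 23 negative controls. The tim-MJD arrays share 1 scan day and the wild type arrays share another, and so the effects of scan day and genotype cannot be told apart. The 18S ribosomal RNA signal was 16.76 to 17.43 on the tim-MJD arrays, and 12.71, 12.01 and 16.70 on wild type 1 to 3. The excess of the 3' over the 5' end of eIF-4a was 2.57 to 3.17 on the tim-MJD arrays, and 3.15, 9.39 and 3.71 on wild type 1 to 3. Nothing in the labels ties replicates to separate collections of flies. The p-values therefore measure only the spread between these arrays, which can be technical.

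The arrays held a readable signal for 16 of the 24 genes, which lay above all negative controls on each of the 6 arrays. The 2 genes taken as markers of this set, Pdf and AstC, were among them. Mip, CCAP, Lk and FMRFa lay at or below control level on all arrays, with deposited intensities from 9.02 (Lk) to 25.9 (CCAP), and did not pass the filter on dim probe sets. A difference in these 4 was not detectable at this signal. The other 20 were tested, among 8379 probe sets in all.

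The comparison asks which of these transcripts tim-MJD heads held at another level than wild type heads. AstC, which encodes the somatostatin-related peptide allatostatin C, fell. It was 1 of 20 genes tested to pass an adjusted p of 0.05 in limma, where 2.48% of all probe sets passed. None rose and 19 did not pass, and 5 of the 20 had an unadjusted p under 0.05, against 15.6% of all probe sets. On 6 of the 20 the groups did not overlap, each time with tim-MJD below wild type. Over all probe sets 21.9% did not overlap, 11.9% with tim-MJD below. The median difference of the 20 genes was -0.03, and that of all probe sets tested was -0.0026. The median size of a difference, regardless of sign, was 0.21 for the 20 genes and 0.12 for all probe sets.

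**Figure D1:**
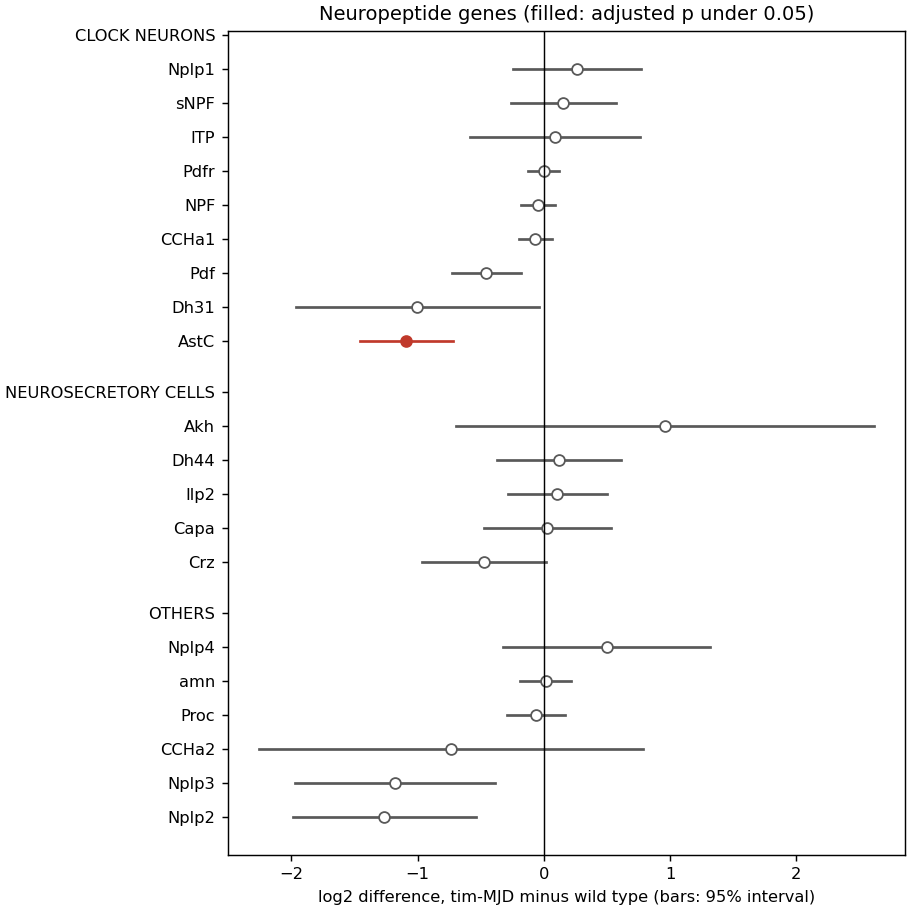
Difference of each tested neuropeptide gene, tim-MJD minus wild type, in log2 units, with its 95% interval from limma (3 arrays per group). AstC is the 1 filled point, at -1.09, and the intervals of Pdf, Dh31, Nplp2 and Nplp3 also lie below 0.

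Among the clock neuron genes AstC, Dh31 and Pdf had the lowest differences, and the other 6 lay between -0.07 and 0.26. AstC is made in part of the dorsal clock neurons and in other neurons of the brain. The deposited intensities of AstC were 86.3, 62.0 and 84.8 on tim-MJD 1 to 3, and 183, 213 and 196 on wild type 1 to 3. Every tim-MJD array lay below every wild type array, with a gap wider than the range within either group. On the log2 scale AstC averaged 6.57 ± 0.23 in tim-MJD and 7.66 ± 0.16 in wild type (SD, n = 3 each), a difference of -1.09 ± 0.15 (SE, adjusted p = 0.0300). Its 95% interval ran from -1.46 to -0.72. The headers give fluidics module 1 for tim-MJD 1 and wild type 2, and module 2 for tim-MJD 2 and wild type 3. Scan day still differed within each module, and wild type 2 had the eIF-4a excess of 9.39. The AstC difference was -0.95 within module 1 and -1.51 within module 2, each 1 array against 1. The AstC call held without tim-MJD 2 (adjusted p = 0.0425) and was lost with any other array left out, with an adjusted p between 0.0546 (without tim-MJD 1) and 0.0968 (without wild type 2), while the difference stayed between -1.19 and -0.95. With all 6 arrays it was also lost without a filter (adjusted p = 0.0764), with the 18S signal or the eIF-4a excess as a covariate (0.144 and 0.126) and with fluidics module as a block (0.319), while the difference stayed between -1.25 and -1.07. Modules 3 and 4 held 1 array each, so the module block compares groups only within modules 1 and 2. With it 0 probe sets passed over the whole array, and the loss of a call there says little about AstC. In whole heads, fewer AstC cells and less AstC RNA per cell cannot be told apart, and the same holds for the genes that follow.

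Pdf encodes pigment-dispersing factor, the peptide by which the ventral lateral clock neurons synchronise the rest of the clock. Its probe set lay close to the controls, with deposited intensities of 50.8, 43.1 and 47.6 on tim-MJD 1 to 3, and 84.0, 72.0 and 62.7 on wild type 1 to 3. The groups did not overlap, and tim-MJD was the lower. On the log2 scale Pdf averaged 5.98 ± 0.11 in tim-MJD and 6.43 ± 0.16 in wild type (SD, n = 3 each). The difference of -0.46 ± 0.11 (SE, 95% interval -0.73 to -0.18) did not pass in limma (adjusted p = 0.111). It was -0.34 within fluidics module 1 and -0.35 within module 2. Near the controls the added 16 compresses differences, and with 1 added in its place the Pdf difference was -0.58 (adjusted p = 0.103). Pdfr, the receptor of this peptide, had log2 levels of 5.87 ± 0.0088 in tim-MJD and 5.88 ± 0.016 in wild type, close above the controls. Its difference of -0.0016 had a 95% interval from -0.12 to 0.12.

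Dh31, a calcitonin-related hormone of dorsal clock neurons and other cells, varied widely between arrays. Its log2 levels were 6.08, 6.60 and 5.68 on tim-MJD 1 to 3, and 7.17, 7.71 and 6.49 on wild type 1 to 3. The tim-MJD mean was the lower, but tim-MJD 2 lay above wild type 3, so the groups overlapped. The difference of -1.001 ± 0.38 (SE) did not pass (adjusted p = 0.304). It was -1.63 within fluidics module 1 and 0.11 within module 2, so the modules gave opposite signs. With the 18S signal as a covariate it was -0.22 and with the eIF-4a excess -0.67, and with 1 array left out it ran from -1.34 (without wild type 3) to -0.69 (without wild type 2). With same-numbered arrays of the groups blocked together it was -1.001 ± 0.09 (SE, adjusted p = 0.0612 in limma), a pairing that the labels do not give.

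**Figure D2:**
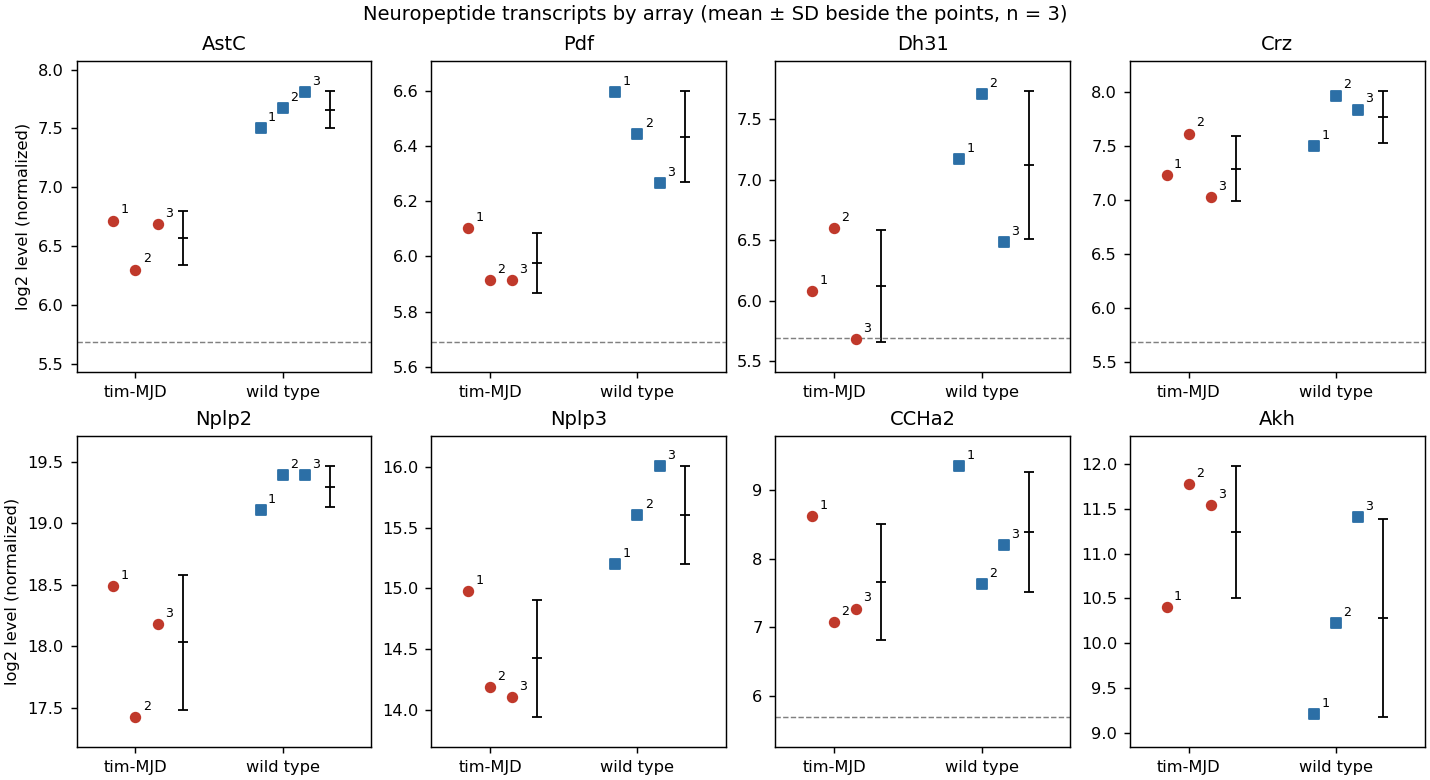
Normalized log2 level of 8 neuropeptide transcripts on each array, with replicate numbers beside the points, the mean and SD of each group, and the highest control level as a dashed line where the panel reaches it. AstC, Pdf, Nplp2 and Nplp3 have every tim-MJD array below every wild type array, while Dh31, Crz, CCHa2 and Akh overlap.

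The remaining clock neuron genes gave small differences, and none passed. NPF, a relative of vertebrate neuropeptide Y found in some lateral clock neurons, read 5.91, 5.90 and 5.82 on tim-MJD 1 to 3, and 5.92, 5.94 and 5.93 on wild type 1 to 3. CCHa1, a peptide of dorsal clock neurons, read 5.49, 5.47 and 5.49 on tim-MJD 1 to 3, and 5.60, 5.54 and 5.52 on wild type 1 to 3. After normalization these groups did not overlap either, but they overlapped in deposited intensity, the differences were -0.05 for NPF and -0.07 for CCHa1, and CCHa1 was above the controls on 1 of the 6 arrays. ITP, the ion transport peptide of a few lateral clock neurons and of neurosecretory cells, was well above the controls and differed by 0.09 ± 0.27 (SE, 95% interval -0.59 to 0.76). Nplp1, the precursor of a peptide found in dorsal clock neurons, differed by 0.26 ± 0.20 (95% interval -0.25 to 0.77). sNPF, short neuropeptide F, is widespread in the brain and includes some lateral clock neurons among its sources. It differed by 0.15 ± 0.16 and lay below the controls on wild type 2 alone.

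Markers of neurons and of other head cells were read on the same arrays. Of 9 neuronal markers 5 were measured, and the sum of their deposited intensities was 1039 to 1638 on the tim-MJD arrays and 702 to 797 on the wild type arrays. The synaptic vesicle gene nSyb carried that gap, and without it the sums overlapped, at 432 to 505 in tim-MJD and 391 to 479 in wild type. Among the 4 tested, 0 passed in limma, 2 had an unadjusted p under 0.05, and the differences ran from 0.04 (elav) to 1.63 (nSyb). Of the 6 clock cell markers, all measured, the summed intensity was 1981 to 2675 in tim-MJD and 2977 to 6141 in wild type. Of these 0 passed, 3 had an unadjusted p under 0.05, and the differences ran from -0.99 (tim) to 1.20 (cry). Other probe sets of tim gave -0.08 and 1.23, so they disagreed with its brightest one, and without tim the sums of the clock markers overlapped, at 1069 to 1310 in tim-MJD and 1129 to 2105 in wild type. Of 6 olfactory organ markers 5 were measured and tested, with a summed intensity of 6143 to 16976 in tim-MJD and 32689 to 50935 in wild type. Of these 1 fell (Obp19a), 4 had an unadjusted p under 0.05, and the median difference was -1.46. Most of that sum came from Obp83b, which differed by -2.21, while Orco differed by -0.03 ± 0.12 (SE, adjusted p = 0.964 in limma). Of 6 glial markers 5 were measured and tested, with a summed intensity of 3510 to 6235 in tim-MJD and 7568 to 19643 in wild type. In limma 0 of the glial markers passed, 2 had an unadjusted p under 0.05, and the median difference was -0.23. Most of the glial sum came from Gs2, which differed by -1.42. Of the glial differences 4 were below 0, and that of moody was 0.50. Of 6 photoreceptor markers 4 were measured and tested, with a summed intensity of 62812 to 66338 in tim-MJD and 55716 to 77337 in wild type. In limma 0 of them passed, 1 had an unadjusted p under 0.05, and the median difference was 0.0043. Hemocyte markers (5 tested) and muscle markers (2 tested) had median differences of -0.06 and -0.14, and 0 passed. The 2 peptidergic neuron markers tested, Phm and amon, are given with the processing genes. The part of all these markers in the AstC, Pdf and Dh31 differences was not tested.

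Of the neurosecretory genes 0 of 5 passed, and none had an unadjusted p under 0.05, where 2.48% and 15.6% of all probe sets did. Crz, corazonin, a stress hormone of lateral neurosecretory cells, came nearest, with log2 levels of 7.29 ± 0.30 in tim-MJD and 7.76 ± 0.24 in wild type (SD, n = 3 each). Its groups overlapped, and the difference of -0.48 had a 95% interval from -0.97 to 0.02 (adjusted p = 0.339). Ilp2, an insulin of the median neurosecretory cells, differed by 0.11 ± 0.15 (SE, 95% interval -0.28 to 0.50). Dh44, a diuretic hormone of the same brain region related to corticotropin-releasing factor, differed by 0.12 ± 0.20 (95% interval -0.37 to 0.61). Capa, the precursor of diuretic and pyrokinin peptides, differed by 0.03 ± 0.20 (95% interval -0.48 to 0.53).

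Akh, the glucagon-like hormone of the corpora cardiaca that mobilises stored fat and sugar, was the most variable of the 20 genes within groups. Its deposited intensities were 1354, 3388 and 2443 on tim-MJD 1 to 3, and 682, 1350 and 2488 on wild type 1 to 3. The highest wild type array lay above 2 of the 3 tim-MJD arrays in intensity. Its spread within groups stood at percentile 98.7 of all probe sets tested, and the difference of 0.96 ± 0.66 (SE) had a 95% interval from -0.69 to 2.61. It ran from 0.42 (without wild type 1) to 1.52 (without wild type 3) with 1 array left out, and was -0.22 with the 18S signal as a covariate. Lst, limostatin, a peptide that in adult flies is made in the corpora cardiaca as well, gave a difference of the opposite sign. Its log2 levels were 6.87, 5.84 and 7.51 on tim-MJD 1 to 3, and 9.39, 8.33 and 9.04 on wild type 1 to 3. Every tim-MJD array lay below every wild type array for Lst, and the difference of -2.18 ± 0.50 did not pass (adjusted p = 0.101).

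Among the other peptides Nplp2 and Nplp3 had the lowest differences, and both lay far above the controls. They encode precursors named as neuropeptide-like from peptides found in the fly nervous system. Nplp2 read 18.49, 17.43 and 18.18 on tim-MJD 1 to 3, and 19.11, 19.39 and 19.39 on wild type 1 to 3. Its deposited intensities, 156881 to 849788, exceed the range of a 16-bit scan, as did 56 to 75 probe sets per array. How such values arose is not known, and with natural logs and nothing added the Nplp2 difference was -0.88. Nplp3 read 14.98, 14.19 and 14.11 on tim-MJD 1 to 3, and 15.20, 15.60 and 16.01 on wild type 1 to 3. In both genes every tim-MJD array lay below every wild type array, and neither difference passed. It was -1.26 ± 0.29 for Nplp2 (SE, adjusted p = 0.0995) and -1.18 ± 0.31 for Nplp3 (SE, adjusted p = 0.141). Within fluidics modules 1 and 2 the Nplp2 difference was -0.90 and -1.97, and the Nplp3 difference was -0.63 and -1.82.

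CCHa2, a hormone of the fat body and gut that acts on insulin-producing cells, had log2 levels of 8.62, 7.07 and 7.27 on tim-MJD 1 to 3, and 9.35, 7.63 and 8.20 on wild type 1 to 3. Replicate 1 was the highest of each group, the groups overlapped, and the difference of -0.74 ± 0.61 (SE) did not pass (adjusted p = 0.661). It was 0.99 within fluidics module 1 and -1.12 within module 2. Nplp4, a further neuropeptide-like precursor, differed by 0.50 ± 0.33 (95% interval -0.32 to 1.32), and by -0.11 with the 18S covariate. Proc, the muscle-stimulating peptide proctolin, differed by -0.06 ± 0.09. The memory gene amn lay near the controls, above them on 1 array of each group, and differed by 0.02 ± 0.08.

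All 8 fat body markers were measured and lay above the controls on all arrays. In limma 1 of them fell (Obp99b) and 7 did not pass, where 0.943% of all probe sets fell. The median difference of the 8 markers was -2.36, and 7 of the 8 differences were below 0. Their mean log2 level was 14.96, 11.14 and 14.60 on tim-MJD 1 to 3, and 16.53, 15.85 and 15.59 on wild type 1 to 3. The sum of their deposited intensities was 44884 to 2.18e+06 in tim-MJD and 2.25e+06 to 5.41e+06 in wild type. Most of it came from Yp1, Yp2 and Yp3, which encode yolk proteins made by females. The mean log2 level of these 3 genes was 19.29, 12.63 and 19.40 on tim-MJD 1 to 3. It was 20.11, 19.90 and 19.40 on wild type 1 to 3, so tim-MJD 2 stood apart from the other tim-MJD arrays as well. The other 5 summed to 6688 to 33566 in tim-MJD and 150600 to 354186 in wild type. Their mean log2 level was 12.36, 10.25 and 11.72 on tim-MJD 1 to 3, and 14.38, 13.41 and 13.31 on wild type 1 to 3, so tim-MJD 2 was the lowest array with or without the yolk proteins. The same array was the lowest of all 6 for 6 of the 20 neuropeptide genes tested, namely AstC, Pdf, CCHa1, Proc, Nplp2 and CCHa2, and for Lst. Of the other arrays, tim-MJD 3 was the lowest for 4 (NPF, Dh31, Crz and Nplp3). Wild type 1 and 2 were the lowest for 4 each, wild type 3 for 2 and tim-MJD 1 for 0. The share of each array over all probe sets was not counted. With 1 array left out the Nplp2 difference ran from -1.54 to -0.94 (without tim-MJD 2), and the CCHa2 difference from -1.22 (without tim-MJD 1) to -0.25 (without wild type 1). The part of fat body RNA, or of the sexes of the flies, in these differences was not tested.

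**Figure D3:**
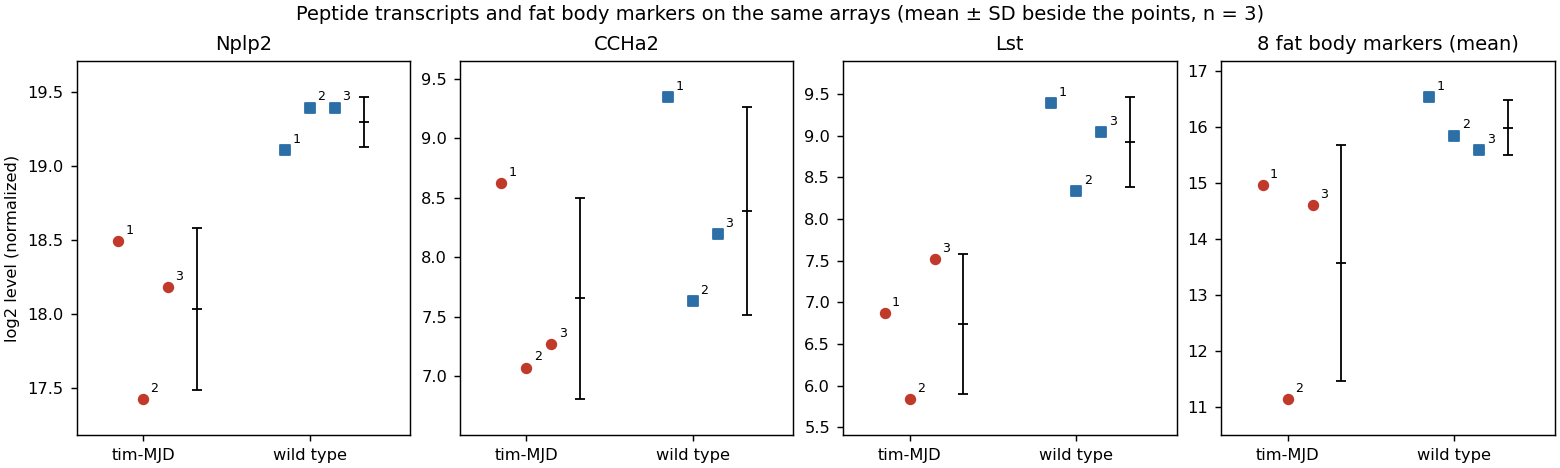
Normalized log2 level of Nplp2, CCHa2 and Lst, and the mean of 8 fat body markers, on each array, with replicate numbers and the mean and SD of each group. In every panel tim-MJD 2 is the lowest point, at 11.14 for the fat body markers. The genes are a selection: CCHa2 and Lst were chosen after their values were seen, and Nplp3, not shown, was lowest on tim-MJD 3.

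The machinery that makes and packs these peptides was not uniform. Of 22 listed processing and release genes 18 were measured and 13 tested: 2 rose, 0 fell and 11 did not pass, where 1.54% of all probe sets rose and 0.943% fell (129 and 79, or 123 and 144 with the values as deposited). Their median difference was -0.0035. In limma 5 of the 13 had an unadjusted p under 0.05, against 15.6% of all probe sets. On 6 the groups did not overlap, 3 with tim-MJD above and 3 below, against 21.9% of all probe sets. IA-2, a membrane protein of dense core vesicles, did not exceed the controls on any wild type array. Its deposited intensities were 69.4, 77.7 and 72.1 on tim-MJD 1 to 3, and 23.7, 25.8 and 26.8 on wild type 1 to 3. It rose by at least 0.88 log2 units in tim-MJD (adjusted p = 0.00195), a bound taken against the control level, where the means were 6.49 in tim-MJD and 5.39 in wild type. The IA-2 call held whichever single array was left out, with an adjusted p of at most 0.0189. The annotation also names IA-2 for a probe set shared with other genes, which was not read here.

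Phm, the monooxygenase that begins the amidation of peptide ends, rose as well. It averaged 11.23 ± 0.15 in tim-MJD and 10.28 ± 0.065 in wild type (SD, n = 3 each), a difference of 0.95 ± 0.09 (SE, adjusted p = 0.0129). All 3 tim-MJD arrays lay above all wild type arrays. The Phm call was lost without tim-MJD 3, wild type 1 or wild type 2 (adjusted p up to 0.0576, without wild type 1). It was also lost with the values as deposited (0.72, adjusted p = 0.0898), with median centring (0.70, adjusted p = 0.219), with a variance trend (0.0795), with the eIF-4a or 18S covariate (0.0624 and 0.104) and with fluidics module as a block (0.325). Within fluidics modules 1 and 2 the Phm difference was 0.74 and 1.15. The convertase gene amon, which cuts peptides out of their precursors, was singled out after its values were seen. It differed by -0.39 ± 0.08, with all tim-MJD arrays below all wild type arrays (adjusted p = 0.0723). Of the other genes in this list, Pal2 (1.44 ± 0.53, adjusted p = 0.283 in limma) had all tim-MJD arrays above all wild type arrays. Nep4 (-0.19 ± 0.06, adjusted p = 0.174) had all of them below, as did Pal1, which lay at or below control level in tim-MJD.

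**Figure D4:**
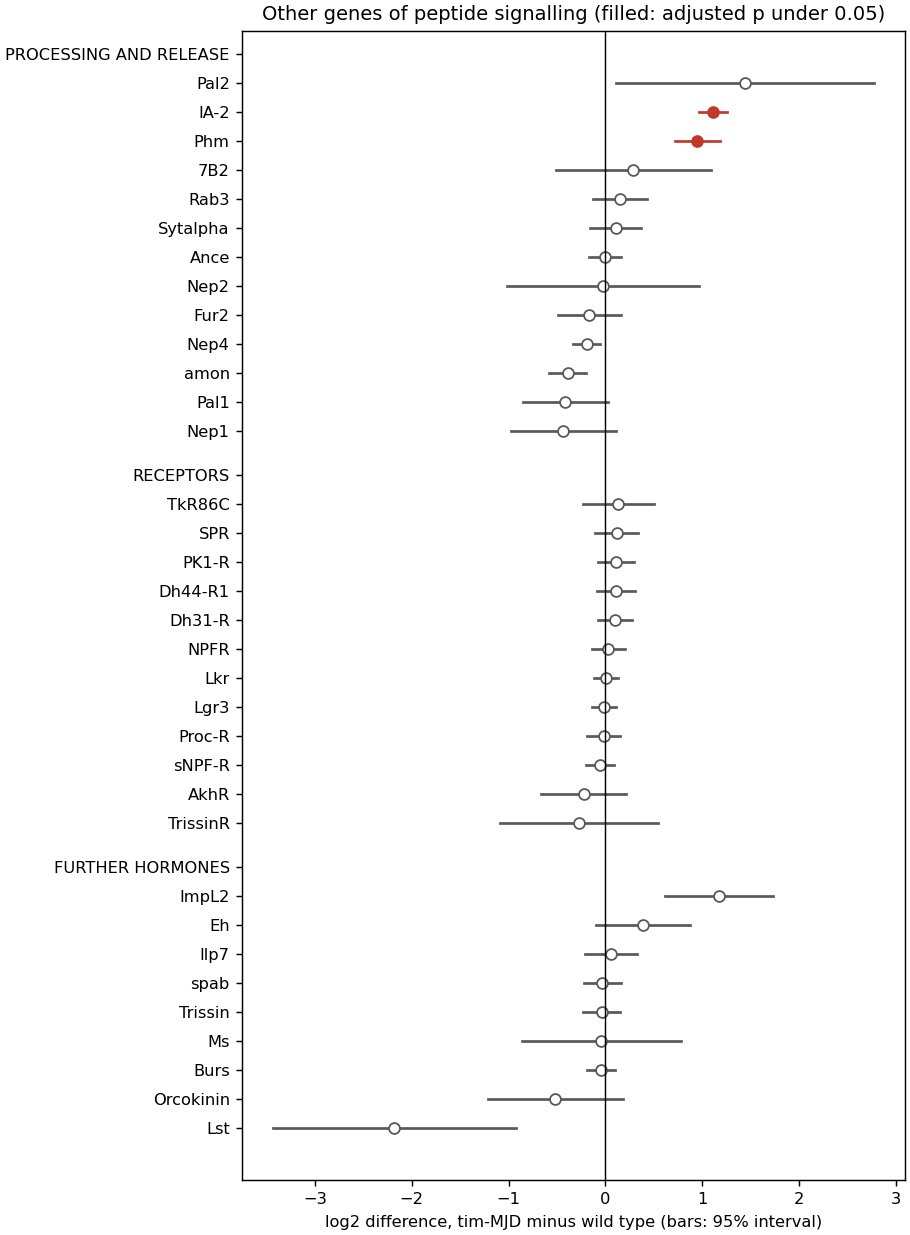
Difference of each tested gene of peptide processing and release, peptide receptors and further peptide hormones, tim-MJD minus wild type, in log2 units, with its 95% interval from limma (3 arrays per group). IA-2 and Phm are the filled points, and the receptors lie between -0.27 and 0.13.

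Peptide receptors were hardly readable. Of 37 listed receptor genes 23 were measured, 15 of those lay at or below the controls on all arrays, and 3 lay above them on all arrays. Of the 12 tested, 0 passed in limma, none had an unadjusted p under 0.05, and the groups overlapped in each. Over all probe sets 2.48% passed, 15.6% had an unadjusted p under 0.05, and the groups did not overlap in 21.9%. PK1-R and Dh44-R1, a pyrokinin receptor and a receptor of Dh44, had the smallest p, with differences of 0.11 each at or below control level, where differences were not detectable.

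Of 20 further peptide hormone genes 12 were measured and 9 tested. In limma 0 of the 9 passed, and the list median was -0.04. An unadjusted p under 0.05 was reached by 2 of the 9, against 15.6% of all probe sets. These 2 were Lst, given above, and ImpL2, a secreted protein that binds insulin-like peptides. ImpL2 averaged 8.73 ± 0.33 in tim-MJD and 7.56 ± 0.29 in wild type (SD, n = 3 each). Every tim-MJD array lay above every wild type array, and the difference of 1.17 ± 0.22 did not pass (adjusted p = 0.0713).

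**Figure D5:**
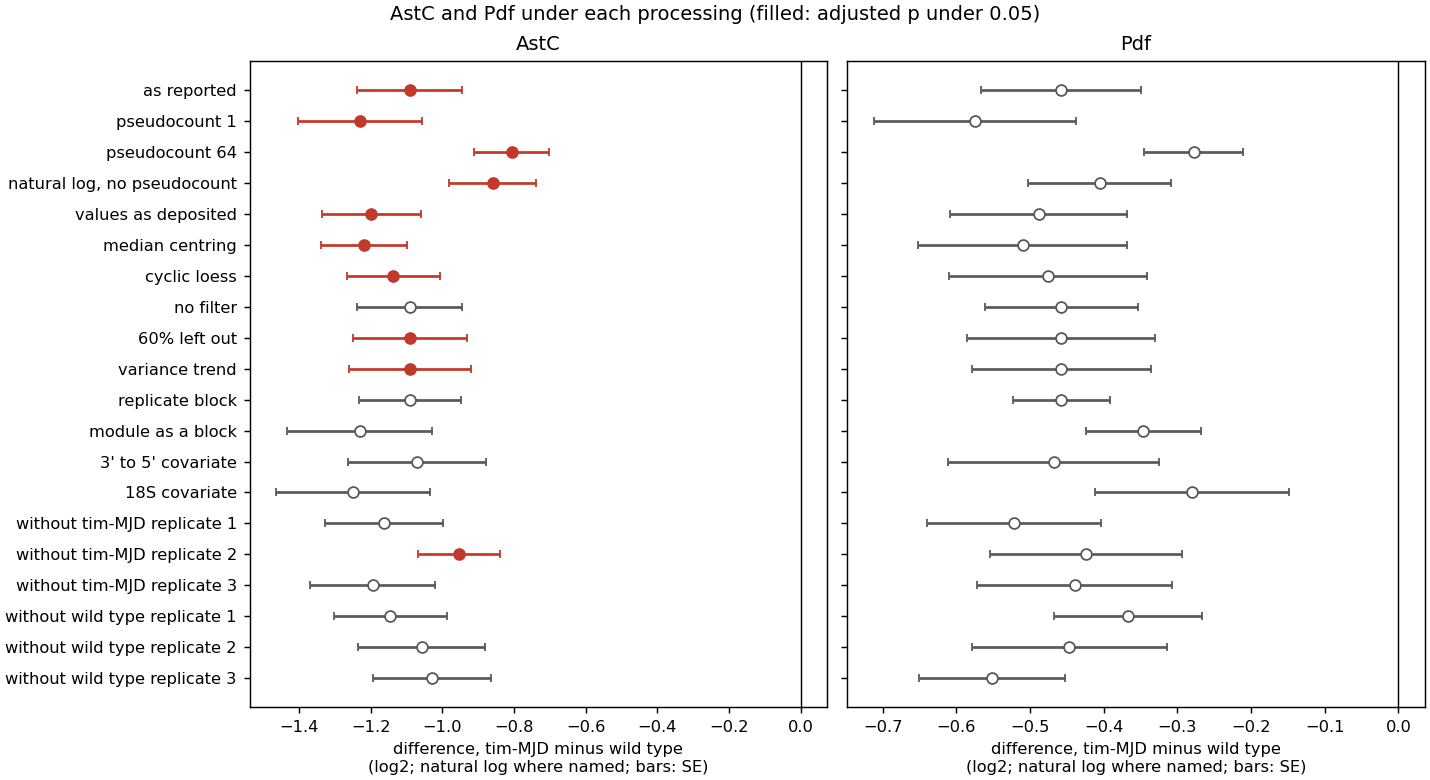
Difference of AstC and of Pdf between tim-MJD and wild type heads under each way of processing the arrays, with its SE. The AstC difference lies below 0 in all 20 fits and passes in 10 of them (filled), and the Pdf difference lies below 0 in all 20 and passes in none.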

How the data were processed

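The arrays were of type DrosGenome1, per the file headers. The authors deposited 1 intensity for each probe set, read here as linear, with a summary and normalization not given in the sources used here. The table held 14010 probe sets, 44 of them array controls. The platform annotation gave 1 gene for 12443 probe sets, of which 12394 matched a current gene table by identifier. From the deposited intensities, log2(value + 16) was quantile normalized without the controls, the lowest 40% by mean over all arrays were left out (8379 of 13966 kept), and groups were compared with limma 3.58.1 in R 4.3.3 (lmFit, eBayes, two-sided), with Benjamini-Hochberg adjustment over all probe sets tested and a threshold of 0.05. An exact permutation of 3 against 3 arrays cannot go below 0.1. Fluidics module and scan day came from other fields of the array description files, per the file headers. The number of arrays limits precision.

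Genes with several probe sets were read from the brightest. The marker sums and means combine different probe sets, and the brightest weigh most in a sum. Apart from these, levels of different probe sets were not set against each other. Where a whole group lay at or below the highest negative control, a change that passed is given as a bound. Differences that did not pass are given there as they were fitted, as for CCHa1, PK1-R and Dh44-R1. Members and lists were chosen with earlier results of these data known. Values by array are given for Pdf, AstC, IA-2 and tested neuropeptide genes with an unadjusted p under 0.05 or groups that do not overlap. They are also given for Akh, CCHa2 and Lst, chosen for their spread after their values were seen. Receptor, processing and hormone genes are named if past the threshold or among the 2 smallest p of their list. Processing genes are also named if their groups do not overlap. The fit was tested on simulated data. Figures were drawn with matplotlib 3.10.9.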

Additional observations from a re-analysis of the deposited data

How the results depend on the processing

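The AstC difference was below 0 under all 19 refits, and Pdf under all 19 as well, where it lay between -0.58 and -0.28 and never passed (adjusted p 0.0956 to 0.528). AstC did not pass without a filter (-1.09, adjusted p = 0.0764), with fluidics module blocked (-1.23, adjusted p = 0.319), with the 3' to 5' covariate (-1.07, adjusted p = 0.126) or with the 18S covariate (-1.25, adjusted p = 0.144), and it was -1.51 within module 2, 1 array against 1. Under each of these 4 fits 0 neuropeptide genes passed, and with 1 array left out 0 to 1 passed. Same-numbered arrays of the groups deviated together with r of 0.29, 0.05 and 0.30, and 5 of 6 arrays correlated best with their own number, a hint from the data and not from the design. With the replicate block, AstC was -1.09 (adjusted p = 0.0901), Phm did not pass (adjusted p = 0.0631), 0 neuropeptide genes passed, 1 receptor or processing gene passed and 84 probe sets passed in all. The SE fell with this block from 0.38 to 0.09 for Dh31, from 0.61 to 0.10 for CCHa2 and from 0.33 to 0.08 for Nplp4. These genes still did not pass in limma (adjusted p = 0.0612, 0.0922 and 0.127).

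Probe sets that passed over the whole array numbered 208, against 122 with median centring, 102 without a filter, 387 with 60% left out, 0 with fluidics module blocked, 90 with the 3' to 5' covariate, 37 with the 18S covariate and 88 to 200 with 1 array left out. Of the receptor and processing genes 1 passed with the values as deposited, median centring, the variance trend and either covariate, 0 with fluidics module blocked and 1 to 3 with 1 array left out. With module blocked, limma passed 0 of all probe sets, with 980 at an unadjusted p under 0.05, and IA-2 passed in each of the other refits. The cause of these changes was not tested. No filter and a stricter one change the number of tests adjusted for and also the SE. For IA-2 the SE was 0.058 as reported, 0.037 without a filter and 0.093 with 60% left out.

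Some differences that had not passed turned sign without passing, among them Akh (0.96 as reported) and Nplp4 (0.50). With the 18S covariate the differences were -0.22 (Akh), -0.38 (Capa), -0.49 (ITP), -0.11 (Nplp4), 0.015 (Pdfr) and -0.098 (amn). With the values as deposited they were -0.18 (Capa), -0.072 (ITP), -0.075 (Ilp2) and 0.010 (Pdfr), and with median centring -0.20 (Capa), -0.094 (ITP) and -0.096 (Ilp2). Cyclic loess gave -0.060 (Capa) and 0.0046 (Pdfr), blocking on module -0.22 (Capa), -0.23 (ITP) and -0.081 (amn), and the 3' to 5' covariate -0.14 (Dh44), 0.0091 (Pdfr) and -0.061 (sNPF). With 1 array left out the ranges were -1.19 to -0.95 (AstC, always below 0), -0.14 to 0.22 (Capa), -0.067 to 0.30 (Dh44), -0.082 to 0.35 (ITP), -0.0085 to 0.0071 (Pdfr), -0.12 to 0.026 (Proc), -0.037 to 0.065 (amn) and -0.0023 to 0.27 (sNPF). Each member had 1 probe set, so a choice between probe sets could not be tried. Probe sets near control level limit what can be seen for Pdf, Pdfr, NPF, CCHa1, sNPF, amn and most receptors.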
